A study of Rattus norvegicus with 14 samples.

Results

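The genes described here are the collagen chains, the laminin chains and the enzymes that hydroxylate and crosslink collagen, measured in rat peritoneal mesotheliomas and in control peritoneal tissue. They were chosen by symbol alone, as every gene with a probe set of its own on the Affymetrix rat genome array whose symbol names a collagen chain (Col), a laminin chain (Lama, Lamb, Lamc), a lysyl oxidase (Lox, Loxl), a prolyl 4-hydroxylase alpha subunit (P4ha) or a lysyl hydroxylase (Plod). The rule gave 61 of 14217 genes, namely 41 collagen chains, 10 laminin chains and 10 enzymes, each read from the probe set that was brightest on average over the 14 arrays. Col4a3, Col6a4, Col21a1, Col28a1, Lamb4 and Loxl4 had no such probe set and were not analysed here.

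Tumors of 11 male Wistar rats and peritoneal tissue of 3 control male Wistar rats were hybridized to 1 array each. The rats with tumors had received a single intraperitoneal injection of fibers suspended in artificial lung medium. The fibers were multiwalled carbon nanotubes (MWCNT B, 2 tumors, MWCNT C, 3 tumors, and MWCNT D, 3 tumors) or amosite asbestos (3 tumors). The labels give 5 tumors as sarcomatoid, 3 as biphasic and 3 as epithelioid. Epithelioid tumors came from amosite, MWCNT D and MWCNT B (1 each), and biphasic tumors from amosite, MWCNT D and MWCNT C (1 each). MWCNT C contributed 2 of the sarcomatoid tumors, and amosite, MWCNT B and MWCNT D contributed 1 each. The sample labels call the control rats sham-treated, whereas the study's methods call them untreated. Ages are not given in the sources used here, and the tumors were late-stage lesions picked by inducer and by the frozen material at hand.

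Collagens are built from chains wound into a helix, and the fibrils of types I, III and V give tissue its tensile strength, whereas type IV forms the network of basement membranes. Prolyl 4-hydroxylases stabilize the helix inside the cell, lysyl hydroxylases modify the lysines that later take part in crosslinks, and lysyl oxidases start the crosslinking of collagen and elastin outside the cell. Laminins, each made of an alpha, a beta and a gamma chain, are the other main component of basement membranes. Mesothelial cells rest on such a membrane, and matrix-rich stroma is a usual feature of mesothelioma, most of all of its sarcomatoid form.

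Values are log2(signal + 1) of the deposited signals, and a gene was called up- or downregulated at an adjusted p under 0.05 and a fold change above 2 in limma. The 2 kinds of tissue differed in cell makeup. All 11 measured skeletal muscle genes were called lower in tumors, with a mean log2 signal between 14.97 and 15.00 in control tissue and between 5.54 and 5.83 in tumors. Mesothelial markers had a mean between 3.82 and 5.99 in control tissue and between 7.55 and 11.96 in tumors (5 of 7 called higher), so that the defining markers of mesothelium were low in the control tissue. For fibroblast markers the mean lay between 7.99 and 8.49 in control tissue and between 8.10 and 10.47 in tumors (4 of 8 higher, 1 lower). For macrophage markers it was 7.13 to 8.25 and 8.85 to 11.65 (6 of 7 higher), and for epithelial markers 2.87 to 3.41 and 4.60 to 10.92 (5 of 5 higher). Endothelial markers (none of 9 called) and adipocyte markers (none of 6) overlapped, at 8.14 to 8.54 against 7.78 to 9.88 and at 8.26 to 9.68 against 4.71 to 10.58. So did pericyte and smooth muscle markers (8.33 to 8.57 against 7.76 to 9.46, 1 of 7 higher and 1 lower) and markers of cartilage and bone (4.04 to 4.37 against 3.30 to 7.46, 1 of 4 lower). How far these differences in makeup enter the values below was not tested, and in whole tissue fewer cells of a type and less RNA per cell cannot be told apart.

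One tumor stood apart. MWCNT D replicate 2, labelled sarcomatoid, had the lowest value of the 11 tumors in 25 of the 37 matrix genes with a mean log2 signal of at least 8 in tumors, a share of 67.6%, against 21.1% of all 11351 probe sets at that level. Its mean log2 signal was the highest of all arrays for endothelial markers (9.88) and the lowest of the tumors for mesothelial (7.55) and fibroblast markers (8.10). For pancreatic enzyme genes its mean was 14.93, a level that only amosite replicate 1 shared (15.66). All other tumors had 5.99 to 6.37 and the controls had 4.80 to 5.33, and 1 of the 7 genes was called higher. Main results are therefore given with and without MWCNT D replicate 2.

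Tumors were first compared with control tissue. Upregulation was strongest among the enzymes that modify collagen, and it was uneven among the chains themselves. In all, 28 of the 61 genes were called, 24 higher and 4 lower in tumors. This share of 45.9% compares with 34.9% of all 31042 probe sets. Calls of higher expression made up 39.3% of the matrix genes against 24.5% of all probe sets, and calls of lower expression 6.56% against 10.4%. The median log2 fold change was 1.09 over the 61 genes and 0.34 over all probe sets. Tumor and control values did not overlap in 16 of the 61 genes. This is a smaller share than the 42.2% of all probe sets with groups that did not overlap. Without MWCNT D replicate 2, 31 genes were called (35.8% of all probe sets) and 26 genes, or 42.6%, had groups that did not overlap (46.1% of all probe sets).

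**Figure D1:**
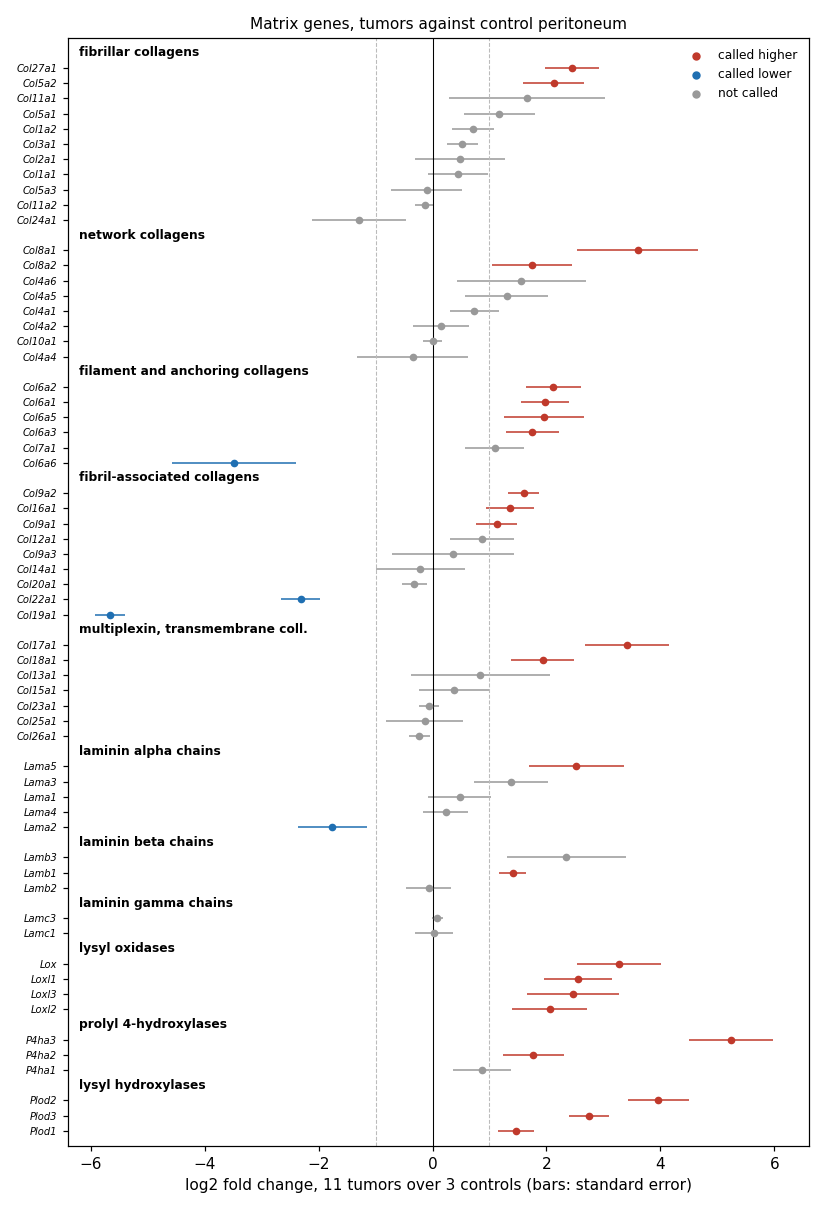
Log2 fold change of the 61 matrix genes in 11 tumors over 3 controls, grouped by kind of gene. Points are the fitted differences, bars are their standard errors, dashed lines mark a 2-fold change, and color marks the call. The enzymes at the bottom, with the exception of P4ha1, are called higher, whereas 9 of the 11 fibrillar collagens are not called.

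Of the 10 enzymes, 9 were upregulated and 1 was not called, with a median log2 fold change of 2.51. All 4 lysyl oxidases were upregulated. Lox, the founding member of the family, had log2 signals of 8.07, 9.28 and 8.95 in the controls, and the tumors ranged from 8.54 to 13.13 with a median of 12.31. Its log2 fold change was 3.27 ± 0.74 (SE; limma, adjusted p = 0.00187). The groups overlapped only through MWCNT D replicate 2, since every other tumor was at 11.02 or above. A second probe set of Lox gave a log2 fold change of 4.01 (limma, adjusted p = 0.000848). Loxl1, which acts on elastin, rose from 8.60, 9.0 and 8.60 in the controls to between 9.76 and 12.76 in the tumors, with no overlap (log2 fold change 2.55 ± 0.59, limma, adjusted p = 0.00225). Loxl2, known for the crosslinking of type IV collagen, had a log2 fold change of 2.06 ± 0.65 (limma, adjusted p = 0.0157), and Loxl3 one of 2.47 ± 0.80 (limma, adjusted p = 0.0173). These 2 calls were less firm. Loxl2 lost its call without control replicate 1 or 3 (limma, adjusted p = 0.0654 and 0.0617). Loxl3 lost its call without the same controls (0.0547 and 0.0613), after quantile normalization (0.0507) and after centring (0.0519).

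Every lysyl hydroxylase was upregulated. Plod2, which hydroxylates the telopeptides of fibrillar collagen, had log2 signals of 8.15, 7.92 and 8.39 in the controls and of 9.70 to 12.93 in the tumors (median 12.24), without overlap. Its fold change was 15.6 (log2 3.96 ± 0.53, limma, adjusted p = 2.5e-05). Plod3, which also attaches sugars to hydroxylysine, went from 8.45, 8.27 and 8.07 to between 9.66 and 11.79 (log2 fold change 2.75 ± 0.35, limma, adjusted p = 1.75e-05). The change of Plod1 was the smallest of the family (1.47 ± 0.31, limma, adjusted p = 0.0012), and its groups did not overlap either.

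The alpha subunits of prolyl 4-hydroxylase were unequal. P4ha3 showed the largest rise of all 61 genes, from 3.09, 5.04 and 4.84 in the controls to between 6.53 and 11.03 in the tumors (median 9.81). This amounts to a fold change of 38.0 (log2 5.25 ± 0.74, limma, adjusted p = 3.88e-05), although a control level this low makes the size uncertain. P4ha2 had a log2 fold change of 1.77 ± 0.54 (limma, adjusted p = 0.0128), but its second, dimmer probe set gave 0.50 (limma, adjusted p = 0.291). P4ha1 was at 10.41, 10.28 and 9.98 in the controls and at 9.13 to 11.75 in the tumors, and was not called (0.87 ± 0.51, limma, adjusted p = 0.16). In 8 tumors it lay between 11.27 and 11.75, above every control. MWCNT B replicate 2, at 10.45, was just above the highest control. MWCNT C replicate 2 and MWCNT D replicate 2, at 9.75 and 9.13, were below every control. These lower tumors are sarcomatoid, but so are MWCNT C replicate 1 and amosite replicate 3, which were at 11.51 and 11.75. Without MWCNT D replicate 2, P4ha1 passed (1.06 ± 0.38, limma, adjusted p = 0.0268), so that all 10 enzymes were then called.

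**Figure D2:**
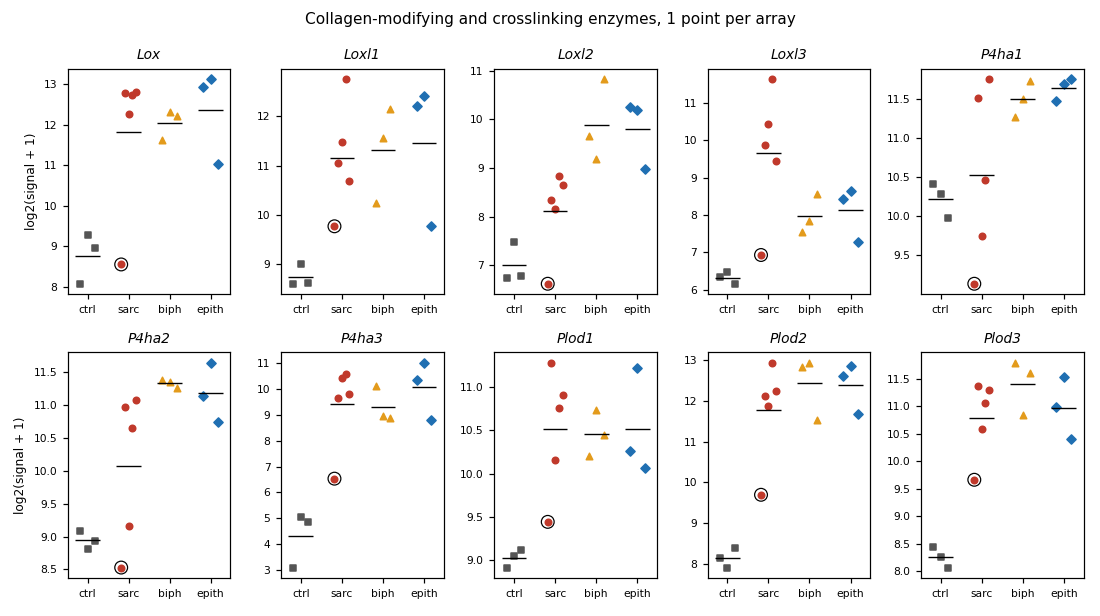
Log2(signal + 1) of the 10 collagen-modifying enzymes in the 3 controls (ctrl) and in sarcomatoid (sarc, 5), biphasic (biph, 3) and epithelioid (epith, 3) tumors, 1 point per array, with bars at the group means. The ringed point, MWCNT D replicate 2, is the lowest tumor for 9 of the 10 enzymes, and Plod2 and Plod3 lie above the controls in every tumor.

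The bases upstream of Plod2 and P4ha2 are shown because both enzymes rose and both genes are textbook targets of hypoxia signaling. Capitals mark ACGTG, the core of the hypoxia response element, and the GC box GGGCGG, on either strand. CCAAT and TATAAA were searched too and neither lies in these 2 windows. Each window holds the 250 bases before the RefSeq start on the rat assembly GRCr8, read on the strand of the gene.
Plod2, chr8:101964068-101964317, plus strand: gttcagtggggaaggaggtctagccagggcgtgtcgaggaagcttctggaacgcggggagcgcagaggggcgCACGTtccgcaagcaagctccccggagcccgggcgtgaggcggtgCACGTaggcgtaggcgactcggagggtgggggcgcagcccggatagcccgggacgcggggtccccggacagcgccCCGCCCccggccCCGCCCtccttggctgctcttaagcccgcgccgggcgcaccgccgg
P4ha2, chr10:38743644-38743893, plus strand: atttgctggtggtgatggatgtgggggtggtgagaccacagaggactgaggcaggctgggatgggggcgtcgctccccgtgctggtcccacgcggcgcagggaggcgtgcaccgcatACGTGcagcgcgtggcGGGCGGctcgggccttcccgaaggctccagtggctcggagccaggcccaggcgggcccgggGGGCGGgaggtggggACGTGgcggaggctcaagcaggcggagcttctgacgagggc
Both windows hold ACGTG in 2 copies and GGGCGG in 2 copies. The other enzymes with a window at hand, namely P4ha1, P4ha3, Plod1, Plod3, Loxl1 and Loxl3, had no ACGTG in it. All of these but P4ha1 were called higher too. RefSeq windows were at hand for 49 of the 61 genes (52 windows). ACGTG was found in 11.5% of these 52 and in 16.6% of all 33469 rat windows of this length, and GGGCGG in 55.8% and 30.5%. CCAAT was found in 23.1% and 34.0%, and TATAAA in 9.6% and 12.9%. None of these motifs contains another, and a match describes the letters only.

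Fibrillar collagens, the substrates of these enzymes, mostly did not pass. Only Col5a2 and Col27a1 of 11 were called. Col1a1, the main chain of type I collagen, was at 12.22, 12.90 and 12.44 in the controls and at 10.52 to 13.81 in the tumors (median 13.40). Its log2 fold change was 0.45 ± 0.53 (limma, adjusted p = 0.494). Col1a2, its partner chain, had 0.72 ± 0.37 (limma, adjusted p = 0.112), and Col3a1, the chain of type III collagen, 0.53 ± 0.28 (limma, adjusted p = 0.121). For Col3a1 the controls were at 13.33, 13.63 and 13.20, and all tumors other than MWCNT D replicate 2 (12.67) were at 13.64 or above. These misses do not show that type I and III chains were the same in both tissues. After quantile normalization Col1a2 and Col3a1 passed (log2 fold changes of 1.23 and 1.65, limma, adjusted p = 0.0469 and 0.0351), whereas centring of the arrays left them at 0.27 and 0.08. Without MWCNT D replicate 2 both passed the p threshold (0.89 and 0.65, limma, adjusted p = 0.000735 and 0.00431) but stayed short of a 2-fold change, and so were not called.

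Col5a2, a chain of the type V collagen that sits inside type I fibrils, rose from 10.86, 11.50 and 10.88 to between 10.49 and 13.77, and 10 of 11 tumors were at 12.87 or above. Its log2 fold change was 2.13 ± 0.53 (limma, adjusted p = 0.0037). Col5a1, the other main type V chain, missed the threshold with all tumors (1.18 ± 0.62, limma, adjusted p = 0.12) and passed without MWCNT D replicate 2 (1.44 ± 0.40, limma, adjusted p = 0.00717). Col27a1, a fibrillar chain of cartilage, was at 5.66, 5.79 and 4.32 in the controls and at 7.04 to 9.59 in the tumors (2.45 ± 0.47, limma, adjusted p = 0.000524). Col11a1 varied most of all 37 genes expressed at a mean log2 signal of at least 8 in tumors, from 3.65 in MWCNT C replicate 2 to 11.64 in MWCNT D replicate 3 (SD 2.45, n = 11). Its controls, at 5.97, 7.94 and 7.61, fell inside this range, and it was not called (1.66 ± 1.37, limma, adjusted p = 0.32). Col5a3, Col24a1, Col11a2 and Col2a1 were not called, with log2 fold changes of -0.11, -1.29, -0.14 and 0.48.

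Type VI collagen, which forms beaded filaments around cells, moved more evenly. Col6a1 had log2 signals of 10.60, 10.78 and 10.47 in the controls and of 10.93 to 13.33 in the tumors (median 12.77), without overlap, and a log2 fold change of 1.97 ± 0.42 (limma, adjusted p = 0.0013). Col6a2 rose by 2.12 ± 0.48 and Col6a3 by 1.75 ± 0.47 on the log2 scale (limma, adjusted p = 0.002 and 0.00555). In MWCNT D replicate 2 all 3 chains were at or near the control level, and in the other 10 tumors all 3 were above every control. Col6a5 was called higher (1.96 ± 0.71, limma, adjusted p = 0.03), with the highest value, 9.46, in MWCNT D replicate 2 and the other tumors at 4.85 to 6.25. This call was lost after quantile normalization and centring (adjusted p = 0.0788 and 0.0888), with low signals raised to 5 (0.282) and without any 1 of the controls (0.058 to 0.132). Col6a6, another type VI chain, went the opposite way, from 8.50, 8.35 and 7.86 to between 1.39 and 7.30 (-3.48 ± 1.08, limma, adjusted p = 0.0138). Col7a1, the anchoring fibril chain, was not called (1.09 ± 0.52, limma, adjusted p = 0.0911).

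Among network-forming chains, both type VIII chains, known from endothelium and vessel walls, were called. Col8a1 was at 6.22, 6.64 and 6.14 in the controls and at 6.10 to 11.97 in the tumors (median 10.47). The fold change was 12.1 (log2 3.60 ± 1.06, limma, adjusted p = 0.0105), and 10 of the 11 tumors were above every control. Col8a2 was just past the threshold (1.74 ± 0.70, limma, adjusted p = 0.0486) and lost its call in 11 of the 14 fits that left out 1 array. Col10a1 and Col4a4 were not called, with log2 fold changes of 0.00 and -0.35.

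The main type IV chains of basement membranes were not called. Col4a1 was at 10.20, 10.56 and 10.45 in the controls and at 9.91 to 12.28 in the tumors (0.74 ± 0.43, limma, adjusted p = 0.158). Col4a2 was at 9.22, 9.57 and 8.91 in the controls and at 8.07 to 10.58 in the tumors (0.14 ± 0.50, limma, adjusted p = 0.823). Quantile normalization and centring of the arrays turned the sign of Col4a2, to -0.08 and -0.30.

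The genes of type IV collagen lie head to head in pairs, and their sequences are shown because Col4a1 and Col4a2 moved together across tumors and Col4a6 stood out in 3 tumors. Capitals mark the same 4 motifs on either strand, and coordinates are on GRCr8. The RefSeq starts of Col4a2, on the minus strand, and Col4a1, on the plus strand, are separated by 76 bases, which are given on the plus strand. The starts of Col4a6, on the minus strand, and Col4a5, on the plus strand, are separated by 1414 bases, and the 250 bases before each start are given on the strand of the gene.
Col4a2 to Col4a1, chr16:84885521-84885596: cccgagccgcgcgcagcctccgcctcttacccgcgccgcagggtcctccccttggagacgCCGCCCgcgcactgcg
Col4a5, chrX:109907109-109907358: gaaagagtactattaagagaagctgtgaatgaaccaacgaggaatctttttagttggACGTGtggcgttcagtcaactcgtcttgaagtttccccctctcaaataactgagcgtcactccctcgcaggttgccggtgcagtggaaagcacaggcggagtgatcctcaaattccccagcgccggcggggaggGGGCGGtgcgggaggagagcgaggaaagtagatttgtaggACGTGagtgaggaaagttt
Col4a6, chrX:109905945-109906194: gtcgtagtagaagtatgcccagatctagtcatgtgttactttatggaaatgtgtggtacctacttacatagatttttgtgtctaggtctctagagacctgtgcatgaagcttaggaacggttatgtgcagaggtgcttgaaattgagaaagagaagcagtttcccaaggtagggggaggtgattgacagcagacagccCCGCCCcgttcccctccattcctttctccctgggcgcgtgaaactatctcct
The Col4a1 and Col4a2 stretch and the Col4a6 window hold 1 GC box each and no other motif searched. The 250 bases before the starts of Col4a1 and Col4a2, which reach beyond the stretch shown, hold CCAAT as well. The Col4a5 window holds 1 GC box and ACGTG in 2 copies.

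Col4a1 and Col4a2 rose and fell together over the 11 tumors (Pearson r = 0.89, permutation p = 0.00024, adjusted p = 0.0011; Spearman rho = 0.89, permutation p = 0.00059). Without the 2 tumors farthest from the median of Col4a1, r was 0.80, and without MWCNT D replicate 2 it was 0.88. Col4a6 was at 10.65, 10.68 and 11.58 in MWCNT D replicate 1, MWCNT B replicate 2 and amosite replicate 1, and at 6.34 to 7.13 in the other 8 tumors, close to the controls at 6.22, 6.26 and 6.23. In these 8 tumors Col4a5 ran from 8.15 to 11.53. As Col4a6 fell into clusters, no correlation of this pair is given. Of the 3 tumors with high Col4a6, 2 were epithelioid and 1 was sarcomatoid. A second, dimmer Col4a6 probe set had its 3 highest values, 8.84, 8.73 and 9.69, in the same 3 tumors, and the other 8 were at 3.84 to 7.29, above the controls at 0.21, 2.54 and 1.27. On that probe set the tumors were called higher than the controls (log2 fold change 5.15, limma, adjusted p = 0.0016), whereas the brighter one was not called (1.56 ± 1.14, limma, adjusted p = 0.261). Col4a5 was not called (1.30 ± 0.73, limma, adjusted p = 0.147).

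Correlations between chains of the same collagen or laminin, and between Col1a1 and Col3a1 of types I and III, were computed for 14 pairs over the tumors, with p-values adjusted over the 14. In 6 pairs the adjusted p was below 0.05. The highest were Col1a1 with Col3a1 (r = 0.99, rho = 0.75, permutation p = 0.00035 and 0.011), Col6a1 with Col6a2 (r = 0.97, rho = 0.94, permutation p = 2e-05 and 6e-05) and Col1a1 with Col1a2 (r = 0.95, rho = 0.82, permutation p = 0.00026 and 0.0033). Col5a1 with Col5a2 and Col6a1 with Col6a3 followed at r = 0.90 and 0.89 (rho = 0.79 and 0.83, permutation p = 0.00064 and 0.00039). Their adjusted p was 0.0011 for Col1a1 with Col3a1, 0.00028 for Col6a1 with Col6a2, 0.0011 for Col1a1 with Col1a2, 0.0015 for Col5a1 with Col5a2 and 0.0011 for Col6a1 with Col6a3. Without the 2 tumors farthest from the median of the first gene, r was 0.92, 0.83, 0.85, 0.72 and 0.65 in that order. Without MWCNT D replicate 2, Col3a1 fell into 2 clusters, and no r over all tumors is given for Col1a1 with Col3a1. Within the larger cluster of 7 tumors r was 0.03. The other 4 pairs were at r of 0.75 to 0.94 without that tumor (adjusted permutation p = 0.00056 to 0.023). By rho, only Col6a1 with Col6a2 of these 4 still passed (0.92, adjusted permutation p = 0.0073). Col1a1 with Col1a2, Col5a1 with Col5a2 and Col6a1 with Col6a3 did not (rho = 0.76, 0.72 and 0.77, adjusted permutation p = 0.052, 0.065 and 0.052). Without both tumors rich in pancreatic enzyme genes, Col6a1 with Col6a3 fell to r = 0.65 and no longer passed (rho = 0.68, permutation p = 0.062 and 0.05, adjusted p = 0.17 and 0.14). By rho, Col1a1 with Col1a2, Col5a1 with Col5a2 and Col4a1 with Col4a2 did not pass there either (0.75, 0.72 and 0.80, adjusted permutation p = 0.12, 0.13 and 0.097).

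**Figure D3:**
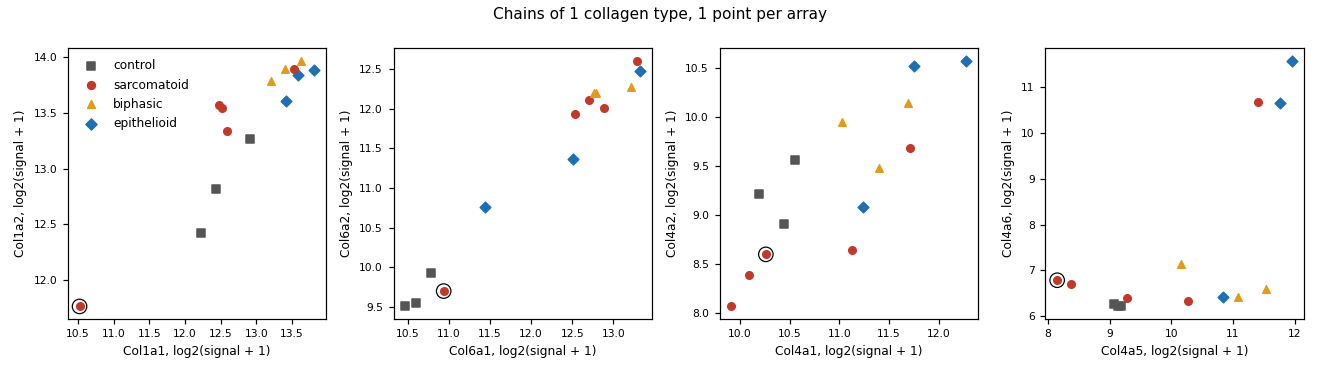
Chains of types I, VI and IV collagen plotted against each other, 1 point per array, both axes in log2(signal + 1), with MWCNT D replicate 2 ringed. Col1a1 with Col1a2, Col6a1 with Col6a2 and Col4a1 with Col4a2 form a band over the tumors (r = 0.95, 0.97 and 0.89), whereas Col4a6 is high in 3 tumors only.

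The laminin pairs did not pass. Lama5 with Lamb2, chains of laminins of mature epithelial basement membranes, had r = 0.52 (rho = 0.61, permutation p = 0.1 and 0.051, adjusted p = 0.2 and 0.1). Lama4 with Lamb1 had r = 0.37, Lamb1 with Lamc1 r = 0.27 and Lama3 with Lamb3 r = 0.25 (rho = 0.36, 0.03 and 0.27, permutation p = 0.26, 0.44 and 0.46, adjusted p = 0.4, 0.5 and 0.5). Of the remaining collagen pairs, Col8a1 with Col8a2 had r = 0.51, Col11a1 with Col11a2 r = 0.33 and Col9a1 with Col9a2 r = 0.08 (rho = 0.21, 0.37 and 0.19, permutation p = 0.11, 0.32 and 0.82, adjusted p = 0.2, 0.44 and 0.82).

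Of 10 laminin chains, 2 were called higher and 1 lower. Of all probe sets 24.5% were called higher and 10.4% lower, so these counts do not set the laminins apart. Lama5, the alpha chain of epithelial basement membranes, was at 7.30, 7.58 and 7.71 in the controls and at 7.05 to 12.49 in the tumors (median 9.996). Only MWCNT C replicate 2 was below the controls. The log2 fold change was 2.52 ± 0.83 (limma, adjusted p = 0.0192), and the call was lost when any 1 of the 3 controls was left out (adjusted p = 0.0511 to 0.0709). Of its dimmer probe sets 1 was called as well (1.22, limma, adjusted p = 0.000383) and 1 was not (-0.69, limma, adjusted p = 0.131). Lamb1, the beta chain of laminins laid down early in tissue formation, rose from 9.85, 10.003 and 9.80 to between 10.62 and 11.77, with no overlap (1.41 ± 0.24, limma, adjusted p = 0.000183). After centring of the arrays it stayed past the adjusted p (0.00426) but at a log2 fold change of 0.96. Lama2, the alpha chain of the muscle basement membrane, was lower in every tumor (6.91 to 9.84) than in the controls (10.54, 10.55 and 10.38), with a log2 fold change of -1.76 ± 0.61 (limma, adjusted p = 0.024). This call too was lost without any 1 of the controls (adjusted p = 0.0612 to 0.074). It lies beside the muscle genes given above, which were lower in tumors as well, and the part of muscle in its change was not tested.

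Lamc1, the gamma chain shared by most laminins, and Lamb2 were nearly level (0.03 ± 0.33 and -0.07 ± 0.40, limma, adjusted p = 0.946 and 0.898). Lama4, a chain of vessel walls, and Lamc3 were not called either (0.23 and 0.09), and centring turned the signs of Lamc1, Lama4 and Lamc3. Lama3 and Lamb3, chains of the laminin that anchors epithelia, were at 5.16 to 8.73 and 4.72 to 11.18 in the tumors. Their log2 fold changes of 1.38 ± 0.65 and 2.35 ± 1.05 did not pass (limma, adjusted p = 0.0838 and 0.07). Lama3 passed without MWCNT D replicate 2 (1.59 ± 0.54, limma, adjusted p = 0.0228). Lama1 was at 8.01 in amosite replicate 1 and at 4.74 to 6.75 in the other tumors.

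**Figure D4:**
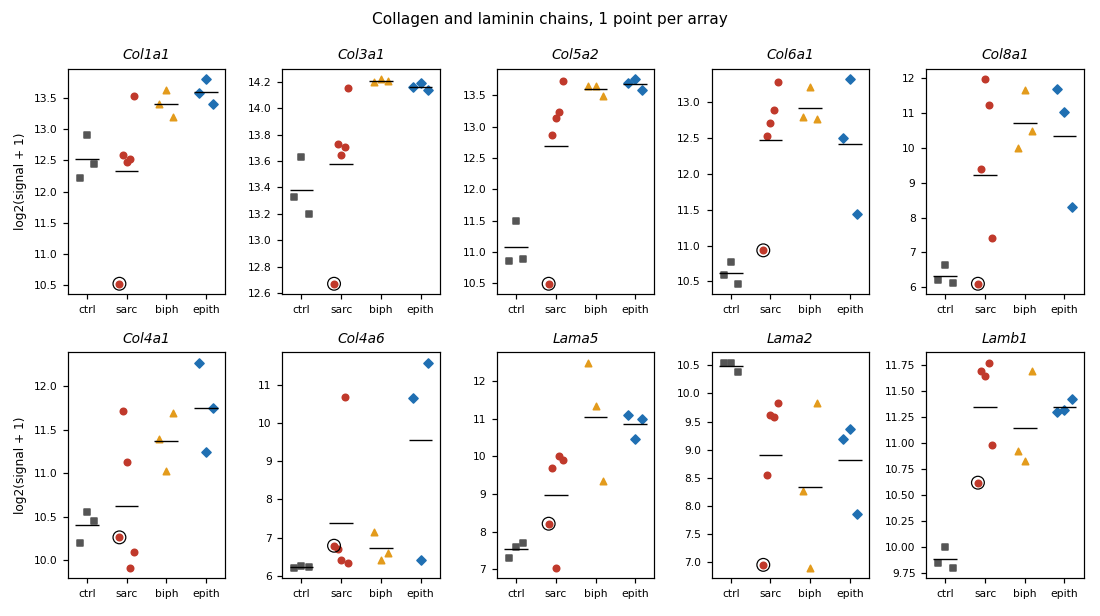
Log2(signal + 1) of 10 collagen and laminin chains in the 3 controls (ctrl) and in sarcomatoid (sarc, 5), biphasic (biph, 3) and epithelioid (epith, 3) tumors, 1 point per array, with bars at the group means and MWCNT D replicate 2 ringed. Lamb1 is above and Lama2 below the controls in every tumor, and Col4a6 is above 10 in 3 tumors.

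The largest fall of all 61 genes was that of Col19a1, a fibril-associated chain expressed during muscle development. It went from 10.62, 9.76 and 10.18 in the controls to between 4.04 and 5.33 in the tumors, a change of -5.66 ± 0.27 on the log2 scale (limma, adjusted p = 6.25e-10). Col22a1, a chain of the junction between muscle and tendon, fell from 10.16, 9.45 and 7.74 to between 6.47 and 7.26 (-2.32 ± 0.34, limma, adjusted p = 5.28e-05). In neither gene did any tumor reach a control. All 11 muscle genes moved the same way, and the part of muscle tissue in these falls was not tested. Other fibril-associated chains were called higher, namely Col9a2 (1.60 ± 0.27, limma, adjusted p = 0.000213), Col16a1 (1.36 ± 0.42, limma, adjusted p = 0.0145) and Col9a1 (1.13 ± 0.36, limma, adjusted p = 0.0169). Col16a1 lost its call after quantile normalization and centring (limma, adjusted p = 0.0511 and 0.0702). It also lost it without control replicate 1 or 3 (0.0531 and 0.0548). Col9a1 was at 2.10 to 4.93 on all arrays and no longer differed once signals below 5 were raised to 5. Col12a1, Col14a1, Col20a1 and Col9a3 were not called (0.87, -0.21, -0.32 and 0.36). Col9a3 was at 8.48 and 8.33 in MWCNT D replicate 2 and amosite replicate 1, the 2 tumors with high pancreatic enzyme genes, and at 3.13 to 4.41 in the other 9. The origin of this signal was not tested.

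Col17a1, a transmembrane chain of hemidesmosomes, had a fold change of 10.7 (log2 3.42 ± 0.73, limma, adjusted p = 0.00129), from 4.22, 4.75 and 2.37 in the controls to between 4.30 and 9.28 in the tumors. Its top value was that of MWCNT B replicate 2, a sarcomatoid tumor, and only amosite replicate 1 lay within the controls. Col18a1, a basement membrane chain that gives rise to endostatin, rose by 1.93 ± 0.56 on the log2 scale (limma, adjusted p = 0.00892), with a second probe set at 1.37 (limma, adjusted p = 0.0517). Col13a1, Col15a1, Col23a1, Col25a1 and Col26a1 were not called (0.84, 0.38, -0.07, -0.14 and -0.23). Amosite replicate 1 alone had high signals of Col2a1 and Col4a4, at 10.25 and 9.01, and the other 10 tumors were at 5.0 to 5.95 and 1.72 to 4.86.

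Genes that fold, secrete and bind collagen are given for context, and their counts are to be read against the 24.5% of all probe sets called higher and the 10.4% called lower. Of 13 measured genes for folding and secretion, 9 were called higher and 1 lower. The largest rises were those of P3h4 (log2 2.73 ± 0.58, limma, adjusted p = 0.00125), a cofactor of lysine hydroxylation, and of Pdia3 (2.65 ± 0.14, limma, adjusted p = 1.95e-09) and Fkbp10 (2.44 ± 0.41, limma, adjusted p = 0.000189), both folding proteins of the endoplasmic reticulum. Serpinh1, the collagen chaperone, rose by 1.56 ± 0.35 (limma, adjusted p = 0.00192). Of 14 fibril-binding proteins 7 were called higher and none lower, with Fbln1 (3.16 ± 0.39, limma, adjusted p = 1.13e-05) and the proteoglycan Bgn (2.82 ± 0.34, limma, adjusted p = 8.48e-06) ahead. Of 12 elastic fiber genes 4 were called higher and 1 lower, among them Ltbp2 (6.18 ± 0.72, limma, adjusted p = 7.5e-06) and Emilin1 (4.89 ± 0.72, limma, adjusted p = 5.85e-05). Basement membrane partners stood closer to the controls, with 1 of 9 called. That gene was Pxdn (2.11 ± 0.46, limma, adjusted p = 0.00135), the enzyme that crosslinks type IV collagen, and Nid1 and Hspg2 were at 0.23 and -0.14. Of the 2 measured genes of propeptide cleavage, Pcolce was called (2.05 ± 0.49, limma, adjusted p = 0.00294), as was 1 of 4 collagen receptors, Itga1 (2.03 ± 0.52, limma, adjusted p = 0.00407).

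The question of whether the inducer mattered was addressed by comparing each inducer with the same 3 controls. The genes called numbered 23 for MWCNT B (30.1% of all probe sets called), 23 for MWCNT C (32.1%), 16 for MWCNT D (32.6%) and 18 for amosite (31.8%), out of 61. In shares these were 37.7%, 37.7%, 26.2% and 29.5%. For MWCNT D the count rested on replicate 2, without which it was 28 (33.1% of all probe sets). As the groups share 1 estimate of spread, the counts of MWCNT B, MWCNT C and amosite rose without it too, to 26, 28 and 25 (31.7%, 33.4% and 33.2% of all probe sets). In each of the 4 comparisons Col17a1, Col27a1, Col6a1, Col9a2, Lamb1, Loxl1, P4ha3, Plod2 and Plod3 were called higher and Col19a1 and Col22a1 lower. Since all 4 use the same controls, such overlap is not independent.

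Tumors of the inducers were then compared directly. No matrix gene was called between MWCNT and amosite tumors in limma, where 5 had an unadjusted p under 0.05 (8.2%, against 5.15% of all probe sets) and 0 of 31042 probe sets were called (0%). The 5 were Col10a1, Col2a1, Col4a4, Col6a6 and Col12a1, and the values of Col2a1 and Col4a4 rested on amosite replicate 1. Without MWCNT D replicate 2 the number was 9 (14.8%, against 7.23% of all probe sets), with Col8a1, Col8a2, Col9a3 and Plod2 added and none called. Between MWCNT B and C tumors and MWCNT D tumors none was called either in limma (0.0129% of all probe sets), and 3 had an unadjusted p under 0.05 (4.9%, against 8.71%). These were Plod1 and Loxl3, higher in MWCNT B and C, and Col13a1, higher in MWCNT D. Without MWCNT D replicate 2 none of the 3 remained (unadjusted p = 0.0687, 0.0753 and 0.156 in limma), and Lama5 was the 1 gene with an unadjusted p under 0.05 (1.64%, against 6.32% of all probe sets). Fits without moderation called none in these 2 comparisons. With 2 to 8 tumors a group, a missed threshold does not show that tumors of different fibers had the same matrix.

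Split by tumor type, 19 genes were called between sarcomatoid tumors and controls (31.1%, against 34.2% of all probe sets), 28 for biphasic (45.9%, against 34.2%) and 27 for epithelioid tumors (44.3%, against 34.2%). Without MWCNT D replicate 2 the counts were 24, 33 and 32 (35.5%, 35.8% and 35.8% of all probe sets). The median log2 fold change over the 61 genes was 0.43, 1.26 and 1.42 in that order, with 0.31, 0.34 and 0.39 over all probe sets. All 3 lysyl hydroxylases, P4ha3, Lox and Loxl1 were called higher in each type, as were Col17a1, Col27a1, Col5a2, Col6a1, Col6a2, Col6a3, Col9a2 and Lamb1. Col19a1 and Col22a1 were called lower in each type. Network collagens were called in 4 of 8 genes in epithelioid tumors (Col4a1, Col4a5, Col4a6 and Col8a1), in 1 of 8 in biphasic tumors (Col8a1) and in 0 of 8 in sarcomatoid tumors. This contrast rested in part on MWCNT D replicate 2, without which the counts were 3, 2 and 2, with Col8a1 and Col8a2 called in sarcomatoid tumors and Col4a6 no longer called in epithelioid tumors (limma, adjusted p = 0.0521). Lamb3 and Loxl2 passed in biphasic and epithelioid tumors and missed in sarcomatoid tumors, whereas Loxl3 passed in sarcomatoid tumors alone. For the lysyl oxidases this pattern ended without MWCNT D replicate 2, when Loxl2 passed in sarcomatoid tumors too (1.49 ± 0.41, limma, adjusted p = 0.00981) and Loxl3 passed in biphasic and epithelioid tumors (1.66 and 1.80, limma, adjusted p = 0.0201 and 0.0134). Such differences between calls do not show that the types differ, which was tested directly.

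Direct comparison of the types called none of the 61 genes in limma. Among the genes given for context, 2 of 9 basement membrane partners and 2 of 12 elastic fiber genes were called lower in sarcomatoid than in epithelioid tumors (0.689% of all probe sets). Against biphasic tumors 1 gene of each of these lists was called lower (0.235% of all probe sets). The counts that follow are of the 61 genes. Between sarcomatoid and epithelioid tumors 15 genes had an unadjusted p under 0.05 (24.6%, against 13.3% of all probe sets), 14 of them lower in sarcomatoid tumors (23.0%, against 9.15%), and 0.76% of all probe sets were called. Between sarcomatoid and biphasic tumors there were 15 as well (24.6%, against 9.28% of all probe sets), all lower in sarcomatoid tumors (6.12% of all probe sets), with 0.248% of all probe sets called. The 2 comparisons share the sarcomatoid tumors. Between biphasic and epithelioid tumors 1 gene, Col4a6, had an unadjusted p under 0.05 (1.6%, against 4.99%), and no probe set was called (0%). The median log2 difference of the 61 genes was -0.59 for sarcomatoid against epithelioid and -0.48 for sarcomatoid against biphasic tumors, and that of all probe sets -0.03 and -0.01. Mesothelial markers moved alongside, with a mean log2 signal of 7.55 to 10.08 in sarcomatoid, 11.03 to 11.96 in biphasic and 11.38 to 11.93 in epithelioid tumors, and epithelial markers with 4.60 to 6.67, 7.54 to 10.92 and 8.65 to 9.81. Their part in the matrix genes was not tested.

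Lamb2 came closest to a call in that set. It was at 8.89, 9.13, 9.37, 9.39 and 10.23 in sarcomatoid and at 10.32, 10.67 and 11.12 in epithelioid tumors, without overlap (-1.30 ± 0.29, limma, adjusted p = 0.066). Col16a1, Col4a2, Loxl2 and Col4a5 followed with differences of -1.29, -1.39, -1.68 and -2.02 (limma, adjusted p = 0.0973, 0.144, 0.18 and 0.194). Among type I and III chains, Col1a1 differed by -1.27 ± 0.49 (limma, adjusted p = 0.287) and Col3a1 by -0.58 ± 0.26 (limma, adjusted p = 0.358). Col17a1 was the 1 gene of the 15 with higher signals in sarcomatoid tumors (1.71 ± 0.74, limma, adjusted p = 0.345). Against biphasic tumors the lowest adjusted p was that of Col14a1, a fibril-associated chain, at 8.87 to 10.83 in sarcomatoid and 11.11 to 13.05 in biphasic tumors (-2.47 ± 0.62, limma, adjusted p = 0.163).

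Without MWCNT D replicate 2 the number with an unadjusted p under 0.05 was 15 (24.6%, against 16.9% of all probe sets) for sarcomatoid against epithelioid and 13 (21.3%, against 12.2%) for sarcomatoid against biphasic tumors, with 13 and 12 of them lower. The median differences shrank to -0.34 and -0.36. Loxl3 ran the other way. The 4 other sarcomatoid tumors were at 9.46, 9.88, 10.44 and 11.64, above all biphasic (7.53, 7.83 and 8.57) and epithelioid tumors (7.27, 8.43 and 8.65), and MWCNT D replicate 2 was at 6.93. Without it, Loxl3 was called higher in sarcomatoid than in epithelioid tumors (2.24 ± 0.49, limma, adjusted p = 0.0497) and had 2.38 ± 0.49 against biphasic tumors (limma, adjusted p = 0.0615). With all tumors the difference from epithelioid tumors was 1.55 and was not called. Loxl3 was singled out after its values were seen. Other arrays left out gave calls in the opposite direction, with Col4a2 lower in sarcomatoid than in epithelioid tumors without MWCNT B replicate 1 (-1.88 ± 0.37, limma, adjusted p = 0.0358) and Lamb2 without MWCNT B replicate 2 (-1.51 ± 0.24, limma, adjusted p = 0.0363).

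Levels of many of these genes spread widely between tumors. Over the 37 genes with a mean log2 signal of at least 8 in tumors, the median SD over tumors was 0.95, against 0.39 over all 11351 such probe sets. This spread includes MWCNT D replicate 2, the lowest tumor in 25 of the 37 genes, and was not computed without it. After Col11a1 the widest spreads were those of Col8a1 (6.10 to 11.97, SD 1.93), Lama5 (7.05 to 12.49, SD 1.51), Loxl3 (6.93 to 11.64, SD 1.45) and Col14a1 (8.87 to 13.05, SD 1.41). The lowest values came from MWCNT D replicate 2 for Col8a1 and Loxl3, from MWCNT C replicate 2 for Lama5 and Col11a1, and from MWCNT B replicate 2 for Col14a1. All 3 tumors were sarcomatoid. The highest values of Col8a1 and Loxl3 came from sarcomatoid tumors too (MWCNT C replicate 2 and MWCNT B replicate 2). Those of Col11a1, Lama5 and Col14a1 came from biphasic tumors.

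**Figure D5:**
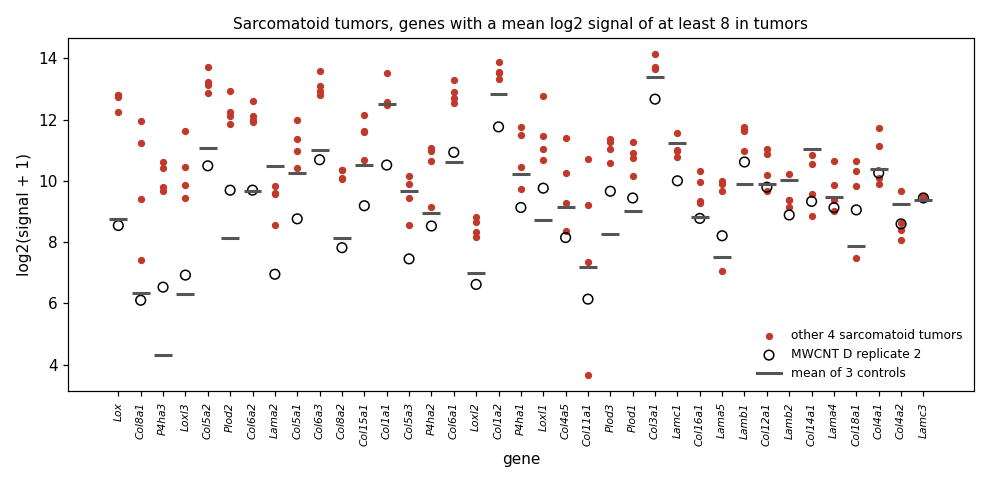
Log2(signal + 1) of the 37 genes with a mean of at least 8 in tumors, in the 5 sarcomatoid tumors, ordered by the gap between MWCNT D replicate 2 (open circles) and the mean of the other 4 (red points), with gray bars at the mean of the 3 controls. MWCNT D replicate 2 lies below the other 4 for the genes on the left, led by Lox, and close to them for Col4a1, Col4a2 and Lamc3 on the right.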

How the data were processed

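RNA of 14 rat tissues (11 peritoneal mesotheliomas and 3 control peritoneal tissues) was hybridized by the authors to 1 Affymetrix rat genome array each. The deposited values are linear probe set intensities, which the authors summarized with PLIER in the Transcriptome Analysis Console, with versions not given in the sources used here. From these intensities log2(signal + 1) was computed after removal of 57 control probe sets, leaving 31042. Their number of arrays limits the precision. Median intensities were 96.9 to 104 in controls and 129 to 154 in tumors, so that scaling alternatives were run.

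Probe sets were named through the platform annotation. Of them 20826 had 1 symbol, 436 had several and 9780 were unnamed here. The matrix genes and all marker and pathway lists were chosen with earlier results of these data known. Groups were taken from the sample labels, which call the samples biological replicates. All probe sets were tested with limma 3.58.1 in R 4.3.3 in 13 comparisons with Benjamini-Hochberg adjustment, and a call required an adjusted p under 0.05 and a fold change above 2. The tumors and controls, the inducers, the tumor types, and the 2 contrasts of fibers among tumors were fitted as separate models. Correlations over tumors used 2-sided permutation tests of 100000 resamples (SciPy 1.17.1), for which 1e-05 is the smallest p possible. The code was tested on simulated data.

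Values are fullest for called genes with a mean log2 signal of at least 8 in the higher group (the 10 largest rises, 4 falls). The 5 widest spreads, the subunit pairs and genes called between tumors were chosen too, and further members were added for completeness. Not each of these genes has all control values and its tumor range printed. Alternatives were quantile normalization, centring, dropping probe sets with a mean under 6 on the log2 scale, raising lower signals to 5 on that scale, trended robust or no moderation, a second probe set, replicate number as a block, inducer or tumor type as a covariate, and fits without single arrays or without both tumors rich in pancreatic enzyme genes. The pairs without MWCNT D replicate 2 were added after seeing the data. Sequences are from RefSeq (GRCr8).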

Additional observations from a re-analysis of the deposited data

Results flagged for a closer look

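MWCNT D replicate 2 lay far from the other sarcomatoid or MWCNT tumors in many matrix genes, by the gap to its nearest neighbor relative to the range of the group. Of 90 groups tested in 45 genes, 23 had such a gap, all of them at this tumor. For a single group, chance gives about 1 in 20. The 90 groups are not independent, since many of the genes vary together and both sets of tumors hold this one. The count therefore describes 1 array and is not a test against chance. Values are log2 signals.

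Among the 5 sarcomatoid tumors, it was low in Col1a2 (11.77, others at 13.34 or above), Col5a2 (10.49), Col6a2 (9.70), Col6a3 (10.69), Col8a2 (7.82), Lox (8.54, others at 12.26 or above) and P4ha3 (6.53, others at 9.68 or above). It was high in Col6a5 (9.46, others at 6.16 or below) and Col9a1 (3.86, others at 3.49 or below). Among the 8 MWCNT tumors, it was low in Col15a1 (9.19), Col1a1 (10.52), Col1a2 (11.77), Col3a1 (12.67), Col5a2 (10.49), Col6a1 (10.93), Col6a2 (9.70), Col6a3 (10.69), Col8a1 (6.10), Col8a2 (7.82), Lox (8.54), P4ha3 (6.53) and Plod2 (9.70), and high in Col6a5 (9.46). Col1a1, Col1a2, Col3a1, Col5a2, Col6a1, Col6a2 and Col6a3 and the enzymes Lox, P4ha3 and Plod2 were thus low together in 1 tumor, which also had high pancreatic enzyme genes (mean log2 signal 14.93) and low fibroblast markers (8.10). The part of its cell makeup was not tested.

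Col14a1 had opposite signs in different tumor types, with neither called against the controls. It was 1.28 above the mean of the controls in biphasic tumors and 1.19 below it in sarcomatoid tumors on the log2 scale, a difference of 2.47 (limma, adjusted p = 0.153 and 0.13 for each type against the controls). In the direct comparison of these types the difference did not pass (limma, adjusted p = 0.163).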

How the results depend on the processing

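The 28 genes called between tumors and controls numbered 25 after quantile normalization, 22 after centring, 24 with the filter, 25 with the floor, 28 with trended robust moderation, 27 without moderation and 31 without both tumors rich in pancreatic enzyme genes. On second probe sets, which only 20 genes have, 7 were called. Of the 28 genes only 8 have one, and 2 of these lost their call. Centring lowered the median of all probe sets from 0.34 to -0.10 and ended the calls of Col16a1, Col6a5, Col8a2, Col9a1, Lamb1 and Loxl3. Leaving out single arrays gave 20 to 31 (20 without control replicate 1, 31 without MWCNT D replicate 2). The same range was 11 to 26 for MWCNT B, 18 to 28 for MWCNT C, 9 to 28 for MWCNT D, 13 to 25 for amosite, 14 to 24 for sarcomatoid, 22 to 33 for biphasic and 20 to 32 for epithelioid tumors against controls. MWCNT B fell to 11 and 15 without its replicate 1 or 2. MWCNT D fell to 10 without its replicate 1, to 10 without control replicate 1 and to 9 without control replicate 3, and rose to 28 without its replicate 2. Between tumor types the range was 0 to 1 for sarcomatoid against epithelioid tumors (Loxl3, Col4a2 and Lamb2 in 1 fit each) and 0 to 0 for the other comparisons between tumors. MWCNT D had 3 calls on second probe sets, which only 20 genes have, and 30 without both pancreatic-rich tumors. Amosite had 10 after centring, epithelioid tumors 16 after centring, and sarcomatoid against biphasic tumors 1 (Loxl3) without both pancreatic-rich tumors. The cause of these changes was not tested. Without both pancreatic-rich tumors the pair Col6a1 with Col6a3 no longer passed (r = 0.65). By rho, only Col6a1 with Col6a2 still passed there (adjusted permutation p = 0.038).

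Replicate numbers did not pair the samples, since deviations of same-numbered arrays correlated at -0.29 to 0.39 (median 0.02). With the replicate block 28 genes were called between tumors and controls and 15 for epithelioid tumors.

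Signs turned only for genes and pairs near 0 that were not called, except the pair Col1a1 with Col3a1 (r = -0.13 without both pancreatic-rich tumors, and only within the larger cluster of Col3a1, so that 2 choices changed). Quantile normalization gave -0.075 for Col4a2 and -0.13 for Lamc3. Centring gave -0.071 for Col15a1, -0.30 for Col4a2, -0.22 for Lama4, -0.42 for Lamc1 and -0.36 for Lamc3. Without both pancreatic-rich tumors Col14a1 was at 0.10, Col5a3 at 0.29 and Lamb2 at 0.012. With single arrays left out Lamc1 ranged from -0.059 to 0.16, Col5a3 from -0.28 to 0.11, Lamb2 from -0.18 to 0.04 and Col4a2 from -0.016 to 0.31. For Col9a1 with Col9a2 r was -0.06 after centring and -0.26 without both pancreatic-rich tumors, and for Lamb1 with Lamc1 it was -0.23 there and -0.23 without MWCNT D replicate 2.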
